A study of Homo sapiens with 6 samples.

Results

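This account covers 10 genes of the actin cytoskeleton and of its transcriptional read-outs in HepG2, an established human hepatoma line, out of 60564 rows with an Ensembl gene identifier. They are TAGLN, ACTA2, MYL9, TPM1 and FILIP1L, which encode actin-linked proteins, CCN1, CCN2, ANKRD1 and AMOTL2, which respond to the coactivators YAP and TAZ, and SRF, a transcription factor of actin genes. CCN1 and CCN2 are named CYR61 and CTGF in older annotations. The genes were picked by symbol with their difference between treated and control libraries already known, so that difference is described for them without a test. All 10 were found, 1 row each, and all 10 passed the filter on low counts, with 565 to 10063 counts per library.

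RNA sequencing compared 3 libraries of HepG2 cells given formononetin, a plant isoflavone, for 72 h at a labelled dose of 625 (its unit is written μm) with 3 control libraries. All cells carry the label WT and were grown in DMEM with fetal calf serum and antibiotics, and the controls are labelled with DMEM as their treatment. No solvent control and no culture time are named for the controls. The labels do not tell if the 3 replicates of a group are separate cultures, and the spread behind each p-value is that between these libraries and may be technical.

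Actin filaments, their cross-linkers and myosin give a cell its tension. When free actin monomers run low, MRTF coactivators enter the nucleus and join SRF on CArG boxes, the DNA elements of many cytoskeletal genes, while growth factor signals act on SRF through a separate set of partners, the TCF proteins. The Hippo kinases hold YAP and TAZ in the cytoplasm. When they are inactive, YAP and TAZ bind TEAD proteins on DNA and raise genes such as CCN1, CCN2 and ANKRD1, and tension on the actin network favours this step. TAGLN, ACTA2 and MYL9 are best known from smooth muscle and activated fibroblasts, and cultured tumour cells can express them too.

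The promoter sequences of 7 of the 10 genes, with 11 start sites in all, were in the RefSeq table used (GRCh38.p14), and TAGLN, MYL9 and CCN1 had no entry. The 250 bases before each start were searched on both strands for GGAATG, the core of the TEAD motif, and for the CArG box of SRF, a palindromic pattern. A CArG box with 1 G or C in its central run of A and T was searched as well, and no matches overlapped in these 7 genes. The 6 windows that held a match are shown 5′ to 3′, since they let the YAP/TAZ-responsive and the SRF-responsive genes be compared. Capitals mark the matches, CATTCC being GGAATG on the other strand.
CCN2 (chr6:131951373-131951622, minus strand): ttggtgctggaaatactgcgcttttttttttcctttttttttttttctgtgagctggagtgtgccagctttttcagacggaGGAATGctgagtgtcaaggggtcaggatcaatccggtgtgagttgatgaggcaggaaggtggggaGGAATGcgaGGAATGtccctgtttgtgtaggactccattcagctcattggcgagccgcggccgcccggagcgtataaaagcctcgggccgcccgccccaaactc
ANKRD1 (chr10:90921088-90921337, minus strand): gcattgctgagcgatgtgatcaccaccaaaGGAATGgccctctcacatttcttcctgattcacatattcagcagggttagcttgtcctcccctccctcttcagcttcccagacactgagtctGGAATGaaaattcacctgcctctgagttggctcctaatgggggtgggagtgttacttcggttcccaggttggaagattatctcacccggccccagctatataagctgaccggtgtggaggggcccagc
AMOTL2, second start (chr3:134374448-134374697, minus strand): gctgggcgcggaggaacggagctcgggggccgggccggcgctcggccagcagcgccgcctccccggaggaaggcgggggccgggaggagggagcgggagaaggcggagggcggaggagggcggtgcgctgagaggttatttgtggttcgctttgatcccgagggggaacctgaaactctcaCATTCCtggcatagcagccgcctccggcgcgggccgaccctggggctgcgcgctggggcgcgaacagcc
ACTA2, second start (chr10:88952774-88953023, minus strand): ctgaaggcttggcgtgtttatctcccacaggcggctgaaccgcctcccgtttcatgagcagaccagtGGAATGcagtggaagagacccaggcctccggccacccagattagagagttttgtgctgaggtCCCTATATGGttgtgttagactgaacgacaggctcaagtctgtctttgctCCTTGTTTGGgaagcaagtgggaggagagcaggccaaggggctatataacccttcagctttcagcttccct
FILIP1L, first start (chr3:99876174-99876423, minus strand): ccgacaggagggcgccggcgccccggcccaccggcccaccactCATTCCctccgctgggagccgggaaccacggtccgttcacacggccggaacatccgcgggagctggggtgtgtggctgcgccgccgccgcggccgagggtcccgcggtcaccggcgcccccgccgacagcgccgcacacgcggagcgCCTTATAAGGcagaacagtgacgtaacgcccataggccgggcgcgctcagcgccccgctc
SRF, first start (chr6:43171019-43171268, plus strand): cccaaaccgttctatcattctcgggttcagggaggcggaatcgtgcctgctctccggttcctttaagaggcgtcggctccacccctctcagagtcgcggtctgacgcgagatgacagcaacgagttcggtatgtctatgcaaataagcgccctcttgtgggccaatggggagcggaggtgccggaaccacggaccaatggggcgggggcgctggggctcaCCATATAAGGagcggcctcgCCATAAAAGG

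CCN2 held GGAATG 3 times, at -169 to -164, -104 to -99 and -95 to -90 from its start. Of 35116 RefSeq promoter windows of this length, 11.9% held GGAATG at least once and 0.0826% at least 3 times. ANKRD1 held it 2 times, a number reached by 0.940% of windows, and AMOTL2, ACTA2 and FILIP1L once each. FILIP1L also held a CArG box, CCTTATAAGG, at -60 to -51. SRF held 2 CArG boxes, CCATATAAGG at -30 to -21 and CCATAAAAGG at -10 to -1. A CArG box was present in 1.16% of windows and at least 2 in 0.0313%. ACTA2 held CCCTATATGG at -121 to -112 and CCTTGTTTGG at -71 to -62, both with 1 G or C in the core, a form present in 5.96% of windows. The window of TPM1 and the other start sites of ACTA2, FILIP1L, AMOTL2 and SRF held none of the 3. A match is a run of letters and not a measured binding site.

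**Figure D1:**
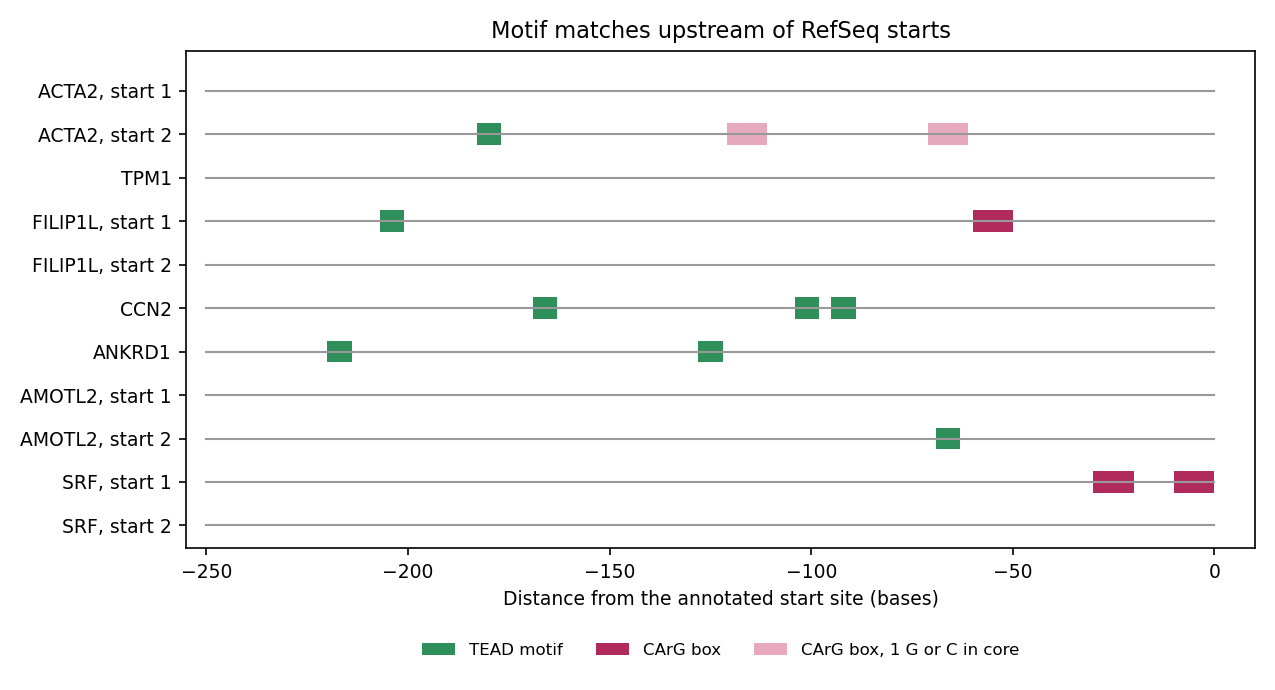
Position of motif matches in the 250 bases before each RefSeq start site, 1 line per start, with distance from the start in bases on the x axis. Green bars mark the TEAD motif, dark red bars a CArG box and pale red bars a CArG box with 1 G or C in its core; CCN2 carries 3 green bars and SRF 2 dark red ones.

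Named genes drew 30848848 to 45682722 counts per library, more in every formononetin library than in any control (two-sided exact permutation p = 0.1, the smallest 3 against 3 can give). Levels are therefore given in CPM, counts per 1000000 after scaling of the libraries with TMM, and differences as log2 fold changes of formononetin against control with their standard error (SE). The liver identity of the cells was plain, since 8 hepatocyte markers including ALB, TF and AFP together held 21141 to 21478 CPM in the control and 15470 to 16039 CPM in formononetin libraries. ALB and TF made up most of that sum, while HNF4A went the other way (178 to 191 against 221 to 284 CPM) and the ranges of APOA1 overlapped (1353 to 1490 against 1464 to 1524 CPM). Of 9 fibroblast and stellate cell markers, COL1A2, COL3A1, DCN, LUM and DES had 0 counts in all 6 libraries, where 3 counts correspond to at most 0.0972 CPM. The summed level of those 9 was 20.0 to 22.0 CPM in the control and 7.44 to 10.1 CPM in formononetin libraries, nearly all of it from PDGFRB (12.6 to 14.6 against 3.82 to 4.46 CPM) and THY1 (6.81 to 7.53 against 3.62 to 6.13 CPM). Of 6 smooth muscle markers 5 stayed under 1 CPM in every library, and the sixth, MYH11, lay between 3.93 and 5.03 CPM. Their sum was 5.28 to 5.96 CPM in the control and 4.14 to 4.34 CPM in formononetin libraries. Of 4 endothelial markers PECAM1 stood out at 21.6 to 27.4 CPM, with a summed level of 22.1 to 25.6 against 24.0 to 28.2 CPM. The part of other cell types in the results below was not tested. In bulk RNA, fewer cells with a transcript and less of it per cell cannot be told apart.

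Formononetin libraries held less transcript of 9 of the 10 genes, by 1.27-fold for TPM1 up to 4.49-fold for FILIP1L, and SRF was the exception. For these 9 genes every formononetin library lay below every control library, a separation seen downwards in 18.7% of the 22230 genes tested. Since the genes were picked on this contrast, the count describes the choice. The median log2 fold change of all 10 was -0.73, beside -0.01 over all genes. Among the 9 lower genes, the share of tested genes with a value as low ran from 0.193% for FILIP1L to 19.6% for TPM1. In either direction 20.7% of all genes passed the test used here (edgeR, quasi-likelihood, with p adjusted by Benjamini-Hochberg and under 0.05) and 39.4% had groups that did not overlap. Leaving out 1 library at a time moved ANKRD1 between -0.68 and -0.42.

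**Figure D2:**
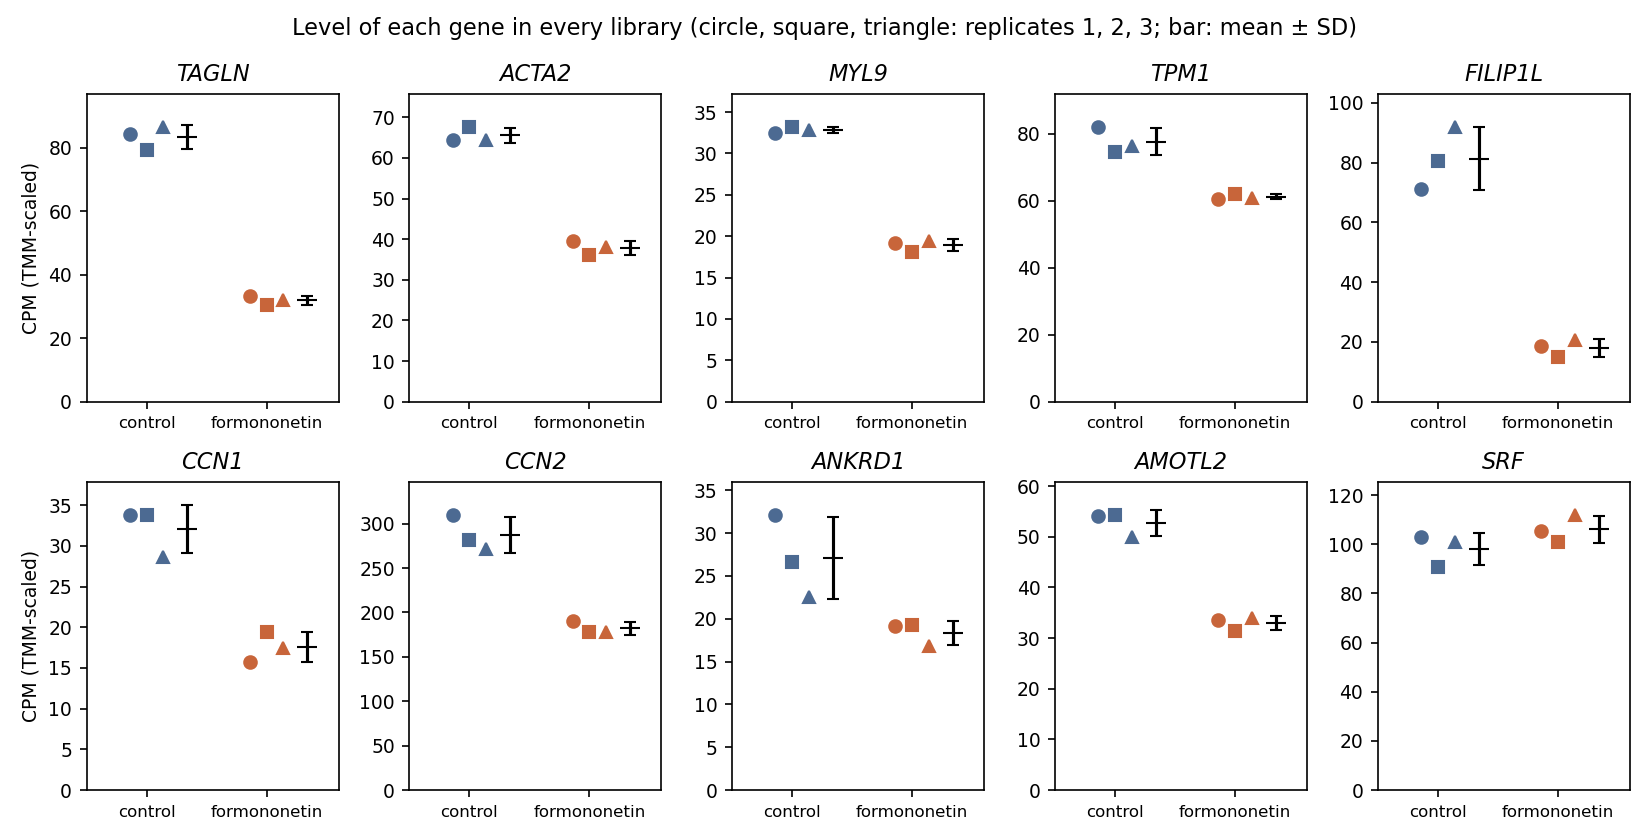
CPM (y axis, from 0) of each of the 10 genes in the 3 control and 3 formononetin libraries, with circle, square and triangle for replicates 1 to 3 and the mean ± SD beside them. The points of the groups are apart in 9 panels, and only those of SRF overlap, at 90.8 to 103 CPM in the control and 101 to 112 CPM in formononetin libraries.

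Among genes for proteins on the actin filament, TAGLN encodes transgelin, which cross-links filaments in smooth muscle (ENSG00000149591, chromosome 11, 117199321 to 117204782, plus strand, GRCh38). It was at 84.2, 79.3 and 86.7 CPM in control replicates 1 to 3 and at 33.2, 30.3 and 32.1 CPM in formononetin replicates 1 to 3. The groups were far apart and each was tight, with coefficients of variation of 4.49% and 4.53%. Its log2 fold change was -1.39 ± 0.06 (SE), and 0.949% of tested genes had one as low. Exons of PCSK7, a protease gene on the opposite strand, share 446 bases with those of TAGLN. PCSK7 rose from 51.5 ± 2.42 to 58.9 ± 0.996 CPM (mean ± SD, n = 3; log2 fold change 0.19 ± 0.05, edgeR adjusted p = 0.0447), and TAGLN summed with it was at -0.57. That sum takes all counts of PCSK7, not only those in the shared bases, so it is not the value of TAGLN freed of the overlap.

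ACTA2 encodes smooth muscle alpha-actin, the isoform that marks contractile fibroblasts (ENSG00000107796, chromosome 10, 88935074 to 88991339, minus strand). Its level was 64.4, 67.8 and 64.5 CPM in the control and 39.6, 36.0 and 38.0 CPM in the formononetin libraries. No treated library came near a control library, and the log2 fold change was -0.79 ± 0.06. The exons of FAS, a death receptor gene on the opposite strand, overlap it by 380 bases and those of ACTA2-AS1 by 516. FAS was at 13.5 ± 1.14 and 10.2 ± 1.96 CPM and was not called (edgeR adjusted p = 0.102), and ACTA2-AS1 stayed under 1 CPM on average in both groups. Summed with all counts of both, ACTA2 was at -0.71.

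MYL9 encodes a regulatory light chain of nonmuscle and smooth muscle myosin (ENSG00000101335, chromosome 20, 36541484 to 36551447, plus strand). The 3 controls were at 32.5, 33.2 and 32.8 CPM and the 3 formononetin libraries at 19.1, 18.1 and 19.5 CPM. Its control values were the closest together of all 10 genes, with a coefficient of variation of 1.14%, and the log2 fold change was -0.80 ± 0.06. ACTA2 and MYL9 thus had nearly the same fold change, 1.73-fold and 1.74-fold lower.

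TPM1 encodes tropomyosin 1, a coiled coil that lies along actin filaments and sets which myosins and severing factors can reach them (ENSG00000140416, chromosome 15, 63042632 to 63071915, plus strand). It showed the smallest difference of the 9 lower genes. Control libraries held 82.1, 74.5 and 76.3 CPM and formononetin libraries 60.5, 62.0 and 60.8 CPM, with a log2 fold change of -0.34 ± 0.05. The groups did not overlap, and the 3 treated libraries were nearly alike. The antisense gene TPM1-AS shares 2070 exonic bases with it and was at 9.66 ± 0.611 and 7.54 ± 0.570 CPM, which did not pass the test (edgeR adjusted p = 0.0517).

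FILIP1L encodes a filamin A interacting protein-like protein (ENSG00000168386, chromosome 3, 99830141 to 100114513, minus strand), and it is the gene whose first RefSeq start carries both GGAATG and a CArG box above. Counts were 71.1, 80.7 and 92.1 CPM in the control libraries and 18.7, 14.8 and 20.8 CPM in the formononetin libraries. The lowest control was far above the highest treated library, although the gene varied more within groups than most others (12.9% in control and 16.7% in formononetin libraries). Only 0.193% of tested genes had a log2 fold change as low as its -2.17 ± 0.14. CMSS1, which lies across the same locus on the opposite strand without shared exonic bases, moved the other way, from 13.1 ± 0.406 to 17.7 ± 0.442 CPM (0.44 ± 0.07, edgeR adjusted p = 0.00607). The count table gives 1 value per gene, so the start sites of FILIP1L were not separated.

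CCN2, the connective tissue growth factor gene, encodes a secreted matricellular protein (ENSG00000118523, chromosome 6, 131948176 to 131951373, minus strand). Its window above is the one with 3 copies of GGAATG. Control replicates 1 to 3 held 309.7, 281 and 271 CPM of it and formononetin replicates 1 to 3 held 190.1, 178 and 178 CPM. Treated libraries lay close together and all controls were higher, for a log2 fold change of -0.66 ± 0.06. CCN1, a matricellular relative that binds integrins (ENSG00000142871, chromosome 1, 85580761 to 85583962, plus strand), had 33.7, 33.8 and 28.6 CPM in the control and 15.8, 19.5 and 17.4 CPM in formononetin libraries. Control replicate 3 was lowest in its group for both genes, yet above all treated libraries. The log2 fold change of CCN1 was -0.87 ± 0.10.

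ANKRD1 encodes an ankyrin repeat protein of the muscle sarcomere and nucleus and is widely used as a read-out of YAP (ENSG00000148677, chromosome 10, 90912096 to 90921276, minus strand). Its controls spread most of all 10 genes, at 32.1, 26.7 and 22.5 CPM, a coefficient of variation of 17.7%. Formononetin libraries held 19.1, 19.3 and 16.8 CPM. The gap between control replicate 3 and formononetin replicate 2 was thus small, and the log2 fold change was -0.56 ± 0.13. AMOTL2 encodes an angiomotin-like protein that holds YAP at junctions and actin, and is itself raised by YAP (ENSG00000114019, chromosome 3, 134355874 to 134375479, minus strand). It was at 54.1, 54.3 and 49.9 CPM in the control and 33.6, 31.4 and 34.0 CPM in formononetin libraries. Both groups were tight here, and the log2 fold change was -0.68 ± 0.06. The differences of the 4 YAP/TAZ-responsive genes spanned 1.47-fold lower for ANKRD1 to 1.83-fold lower for CCN1.

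SRF itself did not follow (ENSG00000112658, chromosome 6, 43171299 to 43181507, plus strand). Control libraries held 103, 90.8 and 101 CPM and formononetin libraries 105, 101 and 112 CPM. The groups overlapped, with formononetin replicate 2 inside the control range, and the log2 fold change of 0.11 ± 0.06 was positive. SRF was at 0.03 under upper quartile scaling of the libraries, 0.06 without control replicate 2 and 0.06 without formononetin replicate 3. Its first start is the one shown above with 2 CArG boxes.

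Per kilobase of exon, CCN2 stood above the other 9 genes in both groups, at 123 ± 8.56 CPM per kb in control and 77.8 ± 3.01 CPM per kb in formononetin libraries (mean ± SD, n = 3). SRF (23.4 ± 1.54), ACTA2 (22.0 ± 0.644) and TAGLN (21.3 ± 0.956) followed in control, and the library ranges of neighbours in that order overlapped. FILIP1L (13.8 ± 1.78), ANKRD1 (13.7 ± 2.43), CCN1 (13.1 ± 1.21) and MYL9 (11.6 ± 0.132) came next, again with overlapping ranges. AMOTL2 (8.81 ± 0.417) and TPM1 (6.03 ± 0.309) were lowest and apart from their neighbours. Exon lengths are unions over all annotated transcripts, 12876 bases for TPM1, so a gene with many isoforms is placed too low. In formononetin libraries the order of levels per kilobase changed. SRF was at 25.2 ± 1.32 CPM per kb, with a gap to ACTA2 at 12.7 ± 0.589, and ANKRD1 at 9.29 ± 0.707 stood above TAGLN at 8.14 ± 0.369. FILIP1L was last at 3.07 ± 0.513, below TPM1 at 4.75 ± 0.0603.

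**Figure D3:**
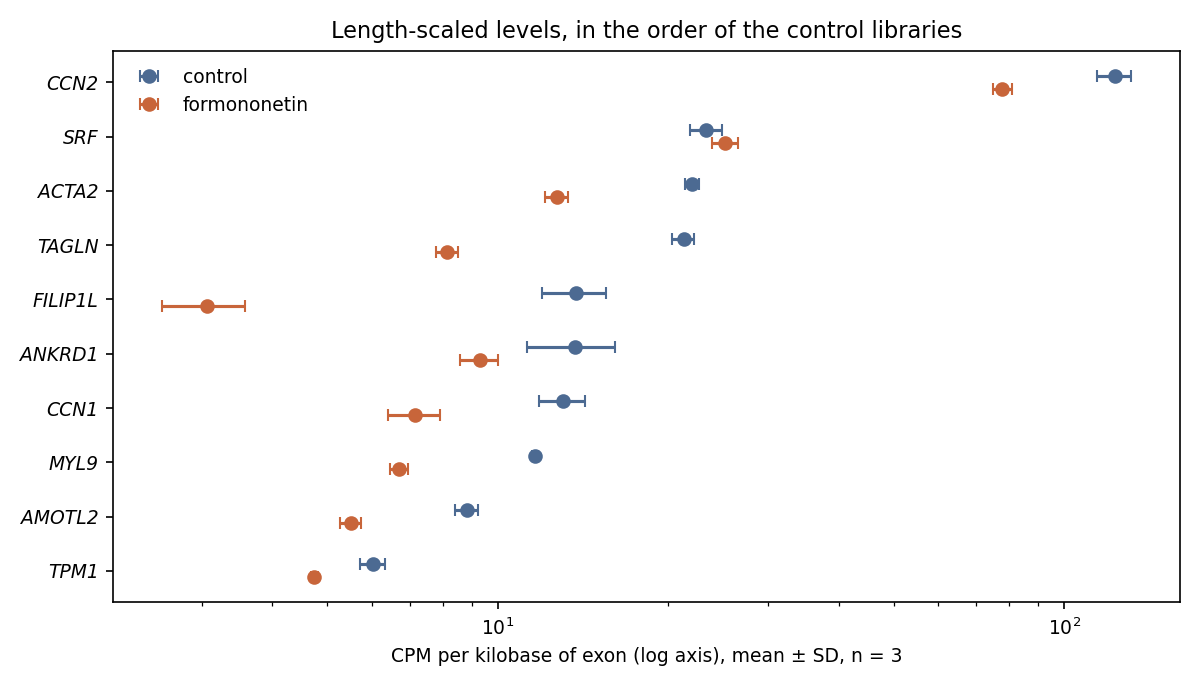
Level per kilobase of exon (x axis, log scale, CPM per kb, mean ± SD of 3 libraries) of the 10 genes, ordered from top to bottom by the control libraries. Blue points are control and orange points formononetin libraries; the pair is widest apart for FILIP1L (13.8 against 3.07 CPM per kb) and overlaps for SRF.

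The genes outside the 10 whose profile over the 6 libraries came nearest to the median profile of the 10 were MARK4, a microtubule affinity-regulating kinase, PLPPR1, ASAH2, a ceramidase, PDGFA, a platelet-derived growth factor chain, and PLXNC1, a semaphorin receptor. Nearness was the root mean square difference of centred log2 CPM, from 0.029 for MARK4 to 0.055 for PLXNC1, among 10387 genes with enough counts. For comparison, AMOTL2 was at 0.040, CCN2 at 0.050 and ACTA2 at 0.061 from the same median. MARK4 was at 76.7 ± 3.74 CPM in the control and 45.6 ± 2.34 CPM in formononetin libraries. With 6 libraries in 2 groups, likeness mostly says that a gene had a similar group difference.

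Further YAP/TAZ target genes included more lowered than raised calls. This list and those below were chosen with earlier results of these data known, so their counts are not independent of this contrast. Of 18 listed genes outside the 10, 15 had enough counts to be tested, 6 fell and 1 rose, against 8.71% lowered and 12.0% raised over all genes, with a median log2 fold change of -0.29. NT5E, the ectoenzyme that makes adenosine (CD73), fell from 54.6 ± 1.75 to 27.4 ± 2.46 CPM (-0.99 ± 0.08, edgeR adjusted p = 0.000369). ARHGEF17 fell by 0.76 on the log2 scale (SE 0.07, edgeR adjusted p = 0.000501) and PTPN14, a phosphatase that binds YAP, by 0.60 (SE 0.04, edgeR adjusted p = 0.000295). The other 3 lowered genes were NUAK2 (-0.56), CRIM1 (-0.47) and LATS2 (-0.24), the last a Hippo kinase that YAP itself induces. MYOF, a membrane repair gene, was the 1 that rose, from 1.28 ± 0.167 to 3.51 ± 0.600 CPM (1.45 ± 0.19). Calls were lost for NUAK2 when formononetin replicate 1 or 3 or control replicate 2 was removed (edgeR adjusted p up to 0.0546) and for LATS2 without formononetin replicate 1 or 2 (edgeR adjusted p up to 0.0599). FOXF2, TGFB2 and RBMS3 had at most 10 counts in any library and were not tested.

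Genes that MRTF and SRF raise for the cytoskeleton had more lowered than raised calls, with only the raised share near that of all genes. Of 22 listed, 19 were tested, 6 fell and 2 rose, against 8.71% lowered and 12.0% raised over all genes, with a median log2 fold change of -0.21. CNN2, a calponin, fell from 99.7 ± 11.1 to 75.2 ± 4.92 CPM (-0.41 ± 0.09, edgeR adjusted p = 0.0178). TPM4, a tropomyosin, fell by 0.38 on the log2 scale (SE 0.09, edgeR adjusted p = 0.0237), and MYH9, the heavy chain of nonmuscle myosin IIA, by 0.21 (SE 0.04, edgeR adjusted p = 0.00735). CNN1, the smooth muscle calponin, was near the limit of detection at 0.518 ± 0.0216 and 0.142 ± 0.0782 CPM (-1.82 ± 0.43), and TGFB1I1, a focal adhesion protein, changed by -0.65 ± 0.17. ACTG1, described with the other actins, was the sixth lowered gene. MYLK, the kinase that phosphorylates myosin light chains, rose from 106 ± 2.75 to 126 ± 4.93 CPM (0.25 ± 0.05, edgeR adjusted p = 0.0106). FLNA, filamin A, was called as raised by a narrow margin at 0.14 ± 0.04 (edgeR adjusted p = 0.0468). Its call was lost without any 1 of the 6 libraries (edgeR adjusted p up to 0.149) and under upper quartile scaling (0.331). Calls were also lost for TPM4 without any 1 control or formononetin replicate 2 (edgeR adjusted p up to 0.0656), for CNN2 without formononetin replicate 1 or 2 (up to 0.0619), for CNN1 without any 1 control or formononetin replicate 1 (up to 0.0770) and for TGFB1I1 when control replicate 1 or 3, or formononetin replicate 2 or 3, was removed (up to 0.114). With control replicate 1, control replicate 3 or formononetin replicate 2 left out, 3 genes were lowered, and each single omission left 1 raised gene.

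**Figure D4:**
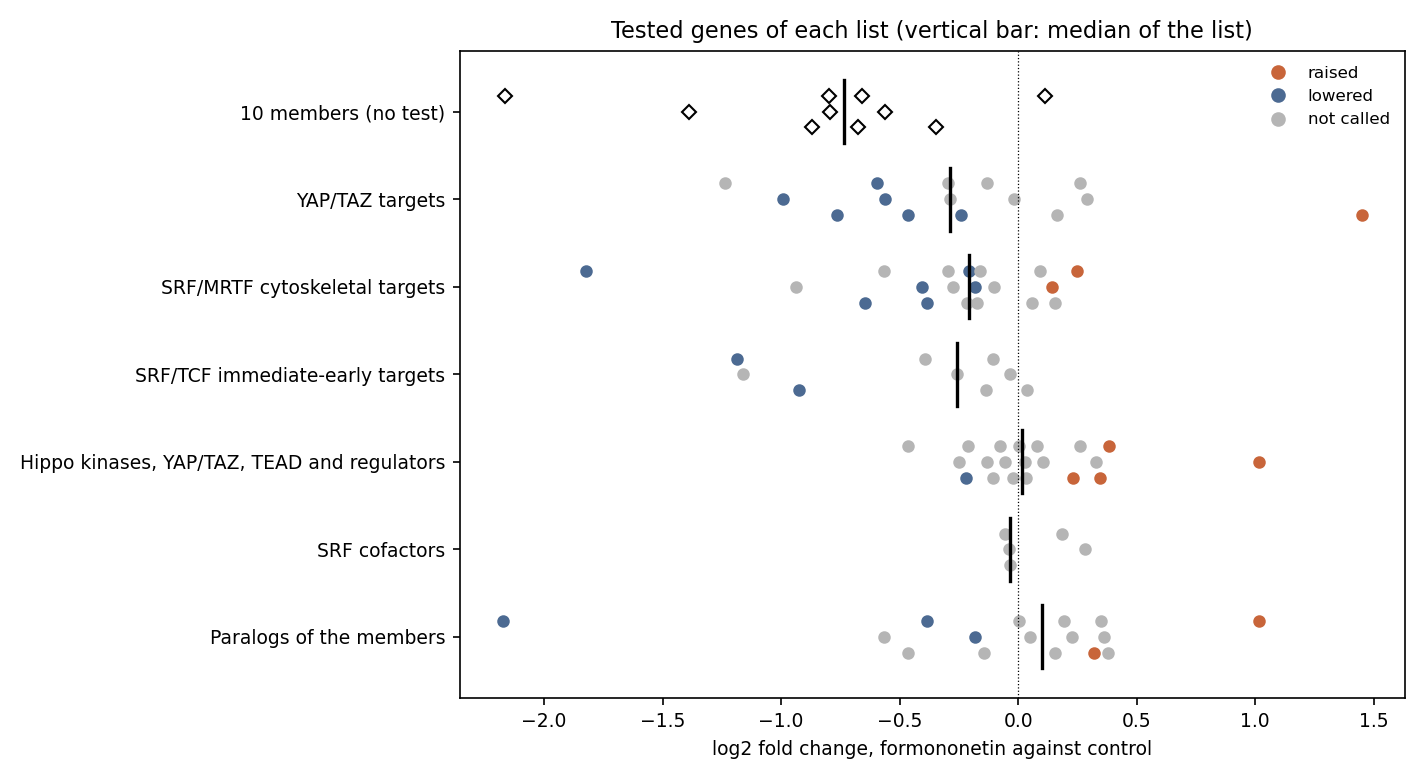
Log2 fold change (x axis) of every tested gene of 6 gene lists and, as open diamonds, of the 10 genes described above, with a vertical bar at each median. Blue and orange points passed the edgeR test as lowered or raised and grey points did not; the medians lie at -0.73 for the 10 genes, -0.29 for YAP/TAZ targets and near 0 for the Hippo and SRF cofactor lists.

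Immediate-early genes that SRF drives with TCF partners gave 2 lowered and 0 raised among 9 tested of 10 (median -0.26), beside shares of 8.71% and 12.0% over all genes. None was higher at an unadjusted p under 0.05 in edgeR, nor was any raised by DESeq2 or limma voom, which lowered 3 and 2. NR4A1, an orphan nuclear receptor, fell from 10.7 ± 0.435 to 5.64 ± 1.01 CPM (-0.92 ± 0.14, edgeR adjusted p = 0.00437) and FOSB changed by -1.19 ± 0.24 at a low level (2.36 ± 0.586 to 1.04 ± 0.219 CPM). FOSB was no longer called without formononetin replicate 2 or 3 (edgeR adjusted p up to 0.0540). The best known members were not called, with EGR1 at -0.14 ± 0.09 and FOS at -0.26 ± 0.43.

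The transcripts of the regulators themselves showed no common direction. YAP1 was at 389 ± 12.1 CPM in the control and 328 ± 53.4 CPM in formononetin libraries (-0.25 ± 0.11, edgeR adjusted p = 0.165). Formononetin replicate 2 was lowest, at 267 CPM beside 352 and 365 CPM, and YAP1 was at -0.12 without it. Every formononetin library lay below every control (380 to 403 CPM), a separation seen downwards in 18.7% of tested genes. WWTR1, which encodes TAZ, was at 119 ± 5.58 and 113 ± 5.22 CPM (-0.08 ± 0.06, edgeR adjusted p = 0.396), and at -0.12 to -0.04 with 1 library left out, -0.12 without formononetin replicate 1, -0.05 without formononetin replicate 2 and -0.04 without control replicate 1. None of TEAD1, TEAD2, TEAD3 and TEAD4 was called, with log2 fold changes from -0.21 to 0.00. Of the 20 genes for Hippo kinases, YAP, TAZ, TEADs and their regulators, all tested, 4 rose and 1 fell (median 0.01), where 12.0% of all genes rose and 8.71% fell. That list leaves out LATS2 (-0.24) and PTPN14 (-0.60), counted among the YAP/TAZ targets, and AMOTL2 (-0.68), described above. STK3, the kinase MST2, rose by 0.39 ± 0.10 (edgeR adjusted p = 0.0307), its relative in the pathway TAOK3 by 0.35 ± 0.07 (edgeR adjusted p = 0.0114) and MOB1A, an activator of the LATS kinases, by 0.23 ± 0.04 (edgeR adjusted p = 0.0101). AMOT, the founding angiomotin and a relative of AMOTL2, rose from 2.13 ± 0.132 to 4.31 ± 0.613 CPM (1.02 ± 0.15), the direction opposite to that of AMOTL2. TAOK1 fell by 0.22 on the log2 scale (SE 0.05, edgeR adjusted p = 0.0246). Leaving out control replicate 2 or 3 or formononetin replicate 1 or 3 ended the calls of STK3 (edgeR adjusted p up to 0.0990) and of TAOK1 (up to 0.0771), which left 0 lowered genes in the list.

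The cofactors of SRF were not called in either direction among 5 tested of 6, by edgeR adjusted p, where 1 was higher and 0 lower at an unadjusted p under 0.05. DESeq2 called 1 raised, and limma voom called 0. The gene higher at an unadjusted p in edgeR was ELK1, at 13.9 ± 0.499 and 16.9 ± 1.26 CPM (0.28 ± 0.09, edgeR adjusted p = 0.0563). MYOCD had 0 counts in all libraries. MRTFA was at 40.0 ± 2.31 and 39.0 ± 3.30 CPM (-0.04 ± 0.08, edgeR adjusted p = 0.798), and MRTFB at a mean of 76.1 and 86.5 CPM (0.18 ± 0.20, edgeR adjusted p = 0.586). The treated libraries of MRTFB held 119.9, 69.5 and 69.9 CPM, so replicate 1 stood apart, and leaving it out gave a log2 fold change of -0.13.

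The closest relatives of the 10 genes did not move as a block. Of 23 paralogs 16 were tested, 2 rose and 3 fell (median 0.10), where the shares over all genes were 12.0% and 8.71%. Of the called paralogs, ACTG1 and TPM4 were already counted among the SRF/MRTF targets and AMOT among the Hippo genes. ACTA1, the skeletal muscle actin gene, fell from 5.86 ± 0.292 to 1.29 ± 0.249 CPM (-2.17 ± 0.17, edgeR adjusted p = 0.000372), about as far as FILIP1L. The abundant cytoplasmic actins differed little, with ACTG1 at 1637 ± 26.1 and 1443 ± 15.9 CPM (-0.18 ± 0.03, edgeR adjusted p = 0.00945) and ACTB at 1663 ± 286 and 1851 ± 152 CPM (0.15 ± 0.12, edgeR adjusted p = 0.429). ACTB was at 0.29 without control replicate 1, 0.04 without control replicate 3 and 0.10 without formononetin replicate 1. Actin coding sequences are nearly alike, and the sources used here do not give how reads matching several actin genes were counted, so the split among ACTA1, ACTA2, ACTB and ACTG1 is uncertain. MYL12B, a light chain close to MYL9, rose from 181 ± 4.40 to 226 ± 10.6 CPM (0.32 ± 0.05, edgeR adjusted p = 0.00393), while MYL12A was not called (-0.15 ± 0.09).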

How the data were processed

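Per the labels' protocols, 500 ng of total RNA went into a stranded mRNA library kit. The authors deposited raw whole-number counts per gene. The submitters' processing notes name GRCh38, STAR 2.5.3a and StringTie 1.3.1c without roles. How reads were counted, on which strand and with which annotation, is not given in the sources used here. Antisense overlaps are therefore uncertain. The 2165 rows that name no gene (3.82 to 5.62% of counts) were left out. Symbols matched 60295 identifiers, and positions came from GENCODE 29.

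After filterByExpr, 22230 genes were tested with edgeR 4.0.16 in R 4.3.3 (TMM, quasi-likelihood F test, group only, two-sided, adjusted p under 0.05), checked on simulated data. SE is the log2 fold change over the square root of F. No library was a duplicate (chi-square over degrees of freedom 13.5 to 34.6 for pairs of 1 group). The genes and lists were chosen with earlier results of these data known. Named list genes are up to 3 called per direction with mean log2 CPM of at least 3, plus YAP1, WWTR1, MRTFA, MRTFB, ACTB and ACTG1. MYOF, NUAK2, CRIM1, LATS2, CNN1, TGFB1I1, FOSB, AMOT, ACTA1, EGR1, FOS, ELK1, MYL12A, the TEAD genes, PDGFRB, THY1, HNF4A, APOA1, MYH11, PECAM1, genes at or near 0 counts and overlapping neighbours were named after their values were seen. Alternatives were DESeq2 1.42.0, limma 3.58.1 voom, other scalings and filters, a replicate block and single omissions. Results of 2 further gene lists are not reported here. Figures used matplotlib 3.10.9.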

Additional observations from a re-analysis of the deposited data

How the results depend on the processing

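Directions of the 10 genes held in all 17 alternatives. Upper quartile scaling moved TAGLN to -1.47, ACTA2 to -0.87, MYL9 to -0.88, TPM1 to -0.42 and AMOTL2 to -0.76, and library totals moved MYL9 to -0.75. Sums with all counts of the genes overlapping on either strand, added after seeing the data, moved TAGLN to -0.57 and ACTA2 to -0.71. Over all genes 2659 were raised and 1937 lowered, against 1813 and 2737 under upper quartile scaling. The median log2 fold change over all genes was -0.01, and -0.09 under that scaling, which lowered the values of all 10 genes. Leaving out 1 library gave 1703 to 2189 raised and 1272 to 1478 lowered, fewest without formononetin replicate 3 and control replicate 3, with fewer samples in each fit. SRF/MRTF targets had 2 raised genes, but 1 with RLE factors, upper quartile scaling, a filter of 1 CPM in 3 libraries, a replicate block or any library left out (1 to 1), and 6 lowered genes, but 3 to 5 with a library left out. Upper quartile scaling gave 9 lowered and 1 raised of them, and library totals 4 lowered and 3 raised. SRF cofactors had 1 raised with library totals, DESeq2 or the assembled loci kept (added after seeing the data). Hippo genes had 0 lowered without a low-count filter and 0 to 1 with a library left out, and SRF/TCF targets 1 to 3 lowered. The MRTFA log2 fold change was 0.0058 with library totals and -0.10 to 0.030 with a library left out, and the MRTFB log2 fold change -0.13 to 0.32. The causes were not tested. Same-numbered libraries deviated from their group means with correlations of -0.02 to 0.01 across genes, and not every library correlated best with its own number. These values showed no pairing by replicate number, though 3 libraries per group cannot exclude one. With the number as a replicate block 1921 genes were raised and 1362 lowered. Depth was ample for the 10 genes, and limits apply to listed genes under 1 CPM.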
